A study of Mus musculus with 12 samples.

Results

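Matrix metalloproteinases (MMPs) and their tissue inhibitors (TIMPs) were followed through 12 mouse tumors. The 10 genes were taken by symbol from a table of 23282 gene lines. They were the 7 proteases Mmp2, Mmp3, Mmp9, Mmp10, Mmp12, Mmp13 and Mmp14, and the 3 inhibitors Timp1, Timp2 and Timp3. All 10 had enough counts to be tested.

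MMPs are zinc-dependent endopeptidases that cut collagens, proteoglycans and other proteins of the extracellular matrix. Most are secreted as inactive proenzymes and become active when the propeptide is removed, while the membrane-type MMPs are anchored at the cell surface. TIMPs bind the active site of the enzymes and block them. In tumors, both families are made largely by fibroblasts, macrophages and other stromal cells as well as by the cancer cells, and they are known for their part in invasion, vessel growth and the release of matrix-bound growth factors. Transcript counts measure none of the enzymatic activity.

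The tumors came from MC38, a mouse colon carcinoma cell line, implanted under the skin of the flank of female wild-type C57BL/6 mice, 6 weeks old according to the labels, and were taken at day 19. The question was how SFIH, a fraction of Inula helenium root rich in sesquiterpene lactones, and an antibody to PD-1, an inhibitory receptor of T cells, changed the tumors alone and together. Con mice received the saline-based vehicle of SFIH and an IgG2a antibody. SFIH mice received 50 mg/kg SFIH daily with the IgG2a antibody. PD mice received 200 μg of the anti-PD-1 antibody 2 times a week, and Comb mice received SFIH and the anti-PD-1 antibody. Each group had 3 tumors, and 1 library was read per tumor. Whole tumor tissue was extracted although the labels call the material tumor cells, and all tumors descend from the 1 cell line. In such bulk RNA, fewer cells of a type and less RNA per cell cannot be told apart.

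The libraries held 7870741 to 12261032 counts. Comb 3, the third Comb tumor, stood apart from the other 11. Its TMM factor (trimmed mean of M-values, the scaling used here) was 0.760, and its summed markers of skeletal muscle reached 6778 CPM (counts scaled to a common library total), against at most 658 elsewhere, in Comb 1. The summed CPM of 8 fibroblast markers was 1330 to 1896 for Con, 714 to 2750 for SFIH, 2755 to 5029 for PD and 2163 to 15226 for Comb, the last range ending at 8589 without Comb 3. The 8 macrophage markers summed to 445 to 781, 767 to 867, 826 to 1666 and 928 to 12592 CPM in the same order, with a highest value of 3321 without Comb 3. Of 8 neutrophil markers, 7 were in the table, summing to 16.7 to 111 CPM outside Comb 3 and 929 for Comb 3. Retnlg alone was 908 CPM of that last sum, and S100a8 and S100a9 were at most 39.3 and 41.6 CPM in any tumor. The neutrophil granule gene Mpo was at 0 in 11 tumors and Elane in 9. The 6 epithelial markers, among them Krt8 and Epcam, summed to only 2.5 to 22.1 CPM outside Comb 3 and to 115 in it, and the intestinal factor Cdx2 was at 0 in 8 tumors. Markers of skin summed to 404 CPM in Comb 3 and at most 25.5 elsewhere, and those of adipocytes to 1097 and at most 314. The part of muscle, skin and fat in the Comb values was not tested.

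Levels are given as CPM after TMM scaling. Each count is the 3′ end of a transcript, so that CPM does not grow with transcript length and levels can be set side by side between genes. In Con, Timp2 was the most abundant member (327 ± 43.9 CPM, mean ± SD, n = 3), followed by Timp1 (196 ± 7.84) and Mmp14 (188 ± 14.9), which did not differ beyond their spread. Timp3 (53.0 ± 19.3), Mmp2 (38.0 ± 16.3), Mmp9 (36.9 ± 4.93) and Mmp13 (30.1 ± 9.08) formed a lower range, in which the tumor values of neighbours overlapped. Mmp12 (18.6 ± 2.70) and Mmp3 (10.2 ± 5.66) were lower, and Mmp10 averaged 1.09 ± 0.419 CPM. The order was not the same in Comb, where Mmp3 averaged 164 CPM and Mmp12 107, the latter with 302 in Comb 3 and at most 16.2 in the other 2 tumors.

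**Figure D1:**
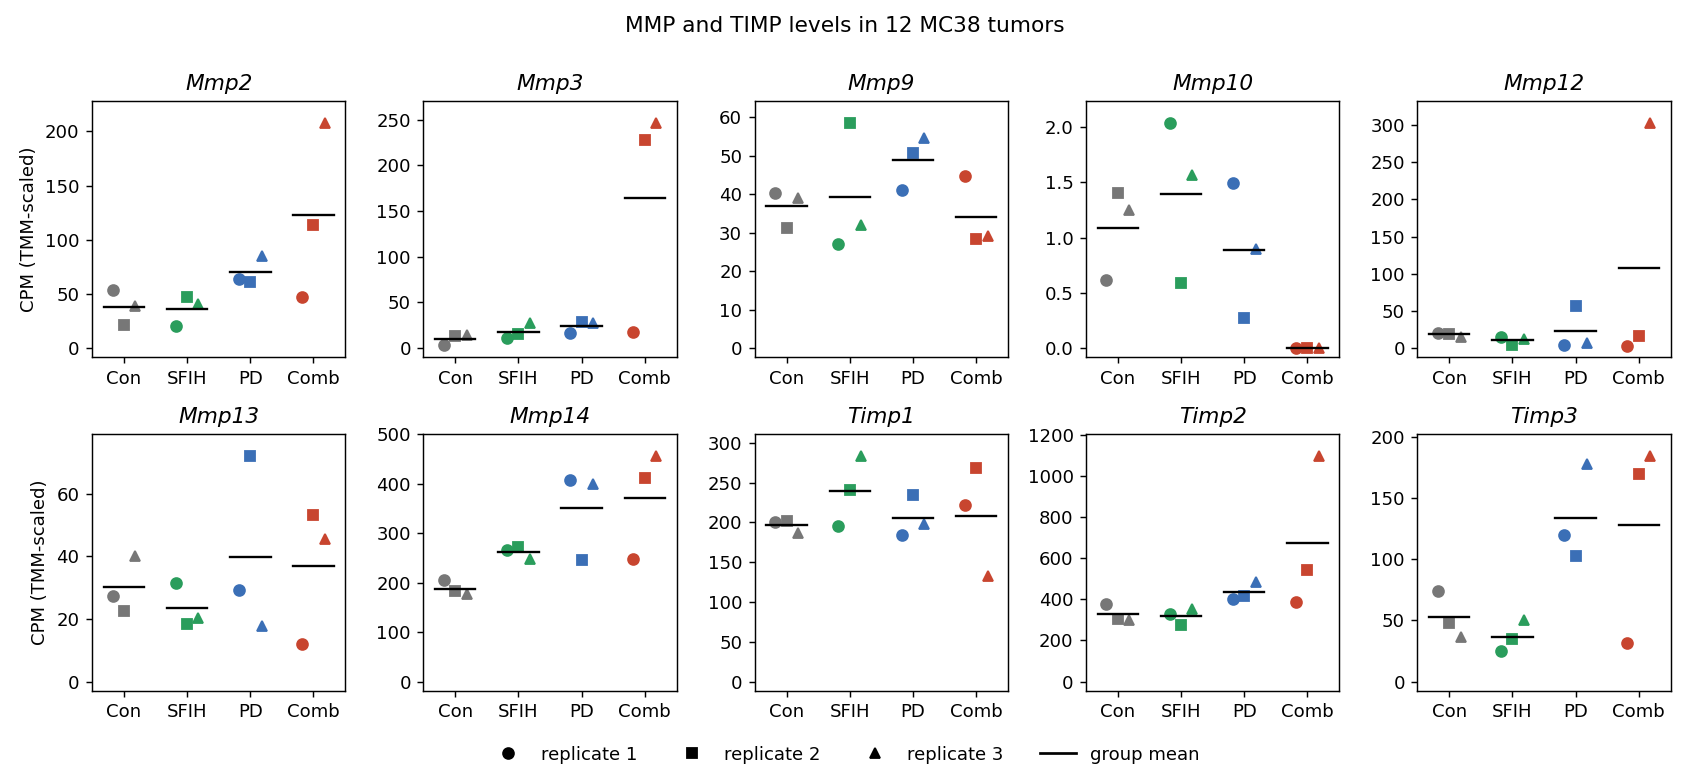
Level of each of the 10 genes in each tumor, as CPM after TMM scaling on a linear axis that differs between panels. Symbols are tumors (circle, square and triangle for replicates 1, 2 and 3) and lines are means of 3. Mmp3 exceeds 200 CPM for Comb 2 and Comb 3 but is 17.8 for Comb 1, while Mmp10 is at 0 in all 3 Comb tumors.

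Of the proteases, 4 lie in 1 cluster of MMP genes on mouse chromosome 9, in the order Mmp13, Mmp12, Mmp1b, Mmp3, Mmp1a, Mmp10, Mmp8, Mmp27, Mmp20 and Mmp7. Their promoters are shown because at least 1 window of each held the same motif, for Mmp12 that of its second start only. Any relation of the motif to the levels was not tested. AP-1, the factor built from Jun and Fos proteins, is a classical inducer of several MMP genes. The 250 bases before the RefSeq start were searched on both strands for the AP-1 motif TGACTCA or its reverse complement TGAGTCA, and for TATAAA or its reverse complement TTTATA. The windows on GRCm38.p6, all on the plus strand, are chr9:7272264-7272513 for Mmp13, chr9:7347124-7347373 for the second start of Mmp12, chr9:7445572-7445821 for Mmp3 and chr9:7502092-7502341 for Mmp10. Capitals mark the motifs.
Mmp13: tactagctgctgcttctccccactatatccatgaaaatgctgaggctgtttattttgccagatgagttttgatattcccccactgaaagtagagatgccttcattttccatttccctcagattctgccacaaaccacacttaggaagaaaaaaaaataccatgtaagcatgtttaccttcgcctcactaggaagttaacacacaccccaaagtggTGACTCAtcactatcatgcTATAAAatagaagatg
Mmp12: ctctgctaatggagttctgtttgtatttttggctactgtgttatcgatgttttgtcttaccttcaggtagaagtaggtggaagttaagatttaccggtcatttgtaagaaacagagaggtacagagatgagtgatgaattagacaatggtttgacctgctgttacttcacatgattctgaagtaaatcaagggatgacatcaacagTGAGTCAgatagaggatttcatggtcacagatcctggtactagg
Mmp3: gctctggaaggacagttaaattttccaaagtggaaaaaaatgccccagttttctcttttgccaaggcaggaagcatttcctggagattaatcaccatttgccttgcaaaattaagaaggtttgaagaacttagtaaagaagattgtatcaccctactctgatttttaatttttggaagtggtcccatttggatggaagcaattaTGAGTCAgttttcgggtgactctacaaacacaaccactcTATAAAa
Mmp10: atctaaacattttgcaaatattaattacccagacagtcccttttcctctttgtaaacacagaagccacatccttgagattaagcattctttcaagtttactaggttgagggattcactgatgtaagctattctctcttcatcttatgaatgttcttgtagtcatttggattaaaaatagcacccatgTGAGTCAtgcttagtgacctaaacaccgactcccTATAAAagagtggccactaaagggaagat

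The AP-1 motif began 35 bases before the start in Mmp13, 44 in Mmp12, 46 in Mmp3 and 63 in Mmp10. TATAAA was found in Mmp13, Mmp3 and Mmp10, at 16, 7 and 29 bases. Of all 32851 RefSeq promoter windows of this length, 4.46% held the AP-1 motif, 12.4% held TATAAA and 0.721% held both. Of the 10 genes, 8 had a promoter in the RefSeq table. The windows of Timp1, Timp2, Timp3 and Mmp14 and the window of the first start of Mmp12 held neither motif. A match in letters describes the window only. In the same cluster, Mmp1a, Mmp20 and Mmp7 (matrilysin) had 0 counts in all 12 tumors, and Mmp1b had 8 counts in all.

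Mmp2 and Mmp9 are the gelatinases, which cut denatured collagen and the type IV collagen of basement membranes. Mmp2 was 54.0, 21.3 and 38.6 CPM for Con 1, 2 and 3, 20.4, 46.9 and 41.2 for SFIH, 64.2, 61.2 and 84.9 for PD, and 47.1, 113 and 208 for Comb. All 3 PD tumors thus lay above all Con and SFIH tumors, and Comb 1 fell within the range of Con. Mmp9, which neutrophils and macrophages also store or secrete, was 40.3, 31.2 and 39.1 for Con, 27.1, 58.5 and 32.1 for SFIH, 41.0, 50.7 and 54.6 for PD, and 44.6, 28.3 and 29.2 for Comb. Its range over the 12 tumors was 2.15-fold, against 10.2-fold for Mmp2, and the high tumors of the 2 genes were not the same. Comb 3 held the highest Mmp2 of the series and an Mmp9 level below every Con tumor.

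Mmp3 and Mmp10 are the stromelysins, enzymes with a wide range of matrix substrates that can also activate other proenzymes. Mmp3 was 3.68, 12.8 and 14.0 CPM for Con, 10.6, 15.2 and 27.9 for SFIH, 16.1, 29.2 and 27.6 for PD, and 17.8, 227 and 246 for Comb. Each Comb tumor was above each Con tumor, but Comb 1 lay inside the PD and SFIH ranges. Mmp10 had 7, 14 and 14 counts in Con, 28, 8 and 15 for SFIH, 14, 2 and 9 for PD, and 0, 0 and 0 for Comb. The 0 counts were shared by all 3 Comb libraries, Comb 1 included, and each of the other 9 tumors had at least 2 counts. Against a floor of 3 counts over the Comb group, Mmp10 was at least 9.78-fold lower in Comb than in Con, at least 12.6-fold lower than in SFIH and at least 8.52-fold lower than in PD. These are small counts, with a sum of 35 for Con, 51 for SFIH and 25 for PD. The floor allows for the counting error of the 0 counts in Comb only. Counting error of the other sums and the spread between tumors are not covered.

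Mmp12 encodes macrophage elastase and Mmp13 the main fibrillar collagenase of the mouse. Mmp12 was 20.6, 19.7 and 15.5 CPM for Con, 14.5, 4.83 and 12.8 for SFIH, 4.06, 57.1 and 6.70 for PD, and 2.62, 16.2 and 302 for Comb. The lowest and the highest values of the series were both Comb tumors, 115-fold apart, and PD spanned 14.1-fold. Mmp13 was 27.5, 22.6 and 40.2 for Con, 31.6, 18.4 and 20.4 for SFIH, 29.3, 71.9 and 17.9 for PD, and 12.1, 53.3 and 45.5 for Comb. PD 2 was the highest PD tumor for both genes. It was also the highest of PD for markers of macrophages (1666 CPM), fibroblasts (5029) and T cells (73.8). The same held for neutrophil, endothelial and epithelial markers, but not for those of muscle, skin or adipocytes. Comb 1 was the lowest tumor of the series for both genes. Its macrophage markers, at 928 CPM, were above those of every Con tumor (at most 781). The part of these cells in the levels was not tested.

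Mmp14 encodes MT1-MMP, a collagenase of the cell surface that activates proMMP-2 in a complex with TIMP-2. It was 205, 182 and 177 CPM for Con, 266, 273 and 248 for SFIH, 407, 246 and 399 for PD, and 247, 411 and 455 for Comb. Every treated tumor exceeded every Con tumor. The means were 188 ± 14.9 (SD, n = 3) in Con, 262 ± 13.1 for SFIH, 351 ± 90.9 for PD and 371 ± 109.6 for Comb, so that SFIH, PD and Comb could not be ordered beyond their spread.

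Among the inhibitors, Timp1, a soluble inhibitor that many cytokines induce, was 200.0, 202 and 187 CPM for Con, 196, 241 and 283 for SFIH, 184, 234 and 198 for PD, and 222, 268 and 132 for Comb. All groups overlapped, and Comb 3 was the lowest tumor of the series. Timp2, which inhibits MMPs and takes part in the activation of proMMP-2, was 378, 305 and 298 for Con, 327, 275 and 353 for SFIH, 402, 416 and 483 for PD, and 386, 543 and 1094 for Comb. PD and Comb lay above Con in every tumor, with Comb 1 by a narrow margin. Timp3, the inhibitor that binds to the matrix and also blocks ADAM proteases, was 74.4, 48.0 and 36.8 for Con, 24.7, 34.9 and 50.2 for SFIH, 119.9, 103 and 178 for PD, and 31.5, 169.5 and 184 for Comb. The PD tumors and 2 of the Comb tumors were above all Con tumors, whereas Comb 1 was below all of them. Timp1 and Timp3 lie within the synapsin genes Syn1 and Syn3, which had 23 to 87 and 5 to 21 counts per tumor. Strand use in the counting is not given in the sources used here.

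The members were also compared as a mixture. Mmp14 made up between 35.4% (Comb 3) and 72.3% (PD 1) of the counts of the 7 protease genes and was the largest part in all 12 tumors. Mmp3 was 1.05% to 7.28% of the protease counts outside Comb and 4.79%, 26.8% and 19.1% in Comb 1, 2 and 3. Mmp12 made up 23.5% in Comb 3 and 1.91% in Comb 2. Timp2 was 49.9% to 60.3% of the inhibitor counts in 11 tumors and 77.6% in Comb 3. The ratio of summed protease to summed inhibitor counts was 0.539, 0.525 and 0.623 for Con, 0.679, 0.757 and 0.559 for SFIH, 0.798, 0.685 and 0.689 for PD, and 0.581, 0.866 and 0.912 for Comb. All PD tumors were above all Con tumors, and Comb 1 lay among the Con tumors. Without Mmp14 the ratios of PD (0.221, 0.359 and 0.224) overlapped those of Con (0.225, 0.197 and 0.285). Group means were 0.562 ± 0.0528 (SD, n = 3), 0.665 ± 0.0995, 0.724 ± 0.0645 and 0.786 ± 0.179, with no test made of this sum over chosen genes.

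**Figure D2:**
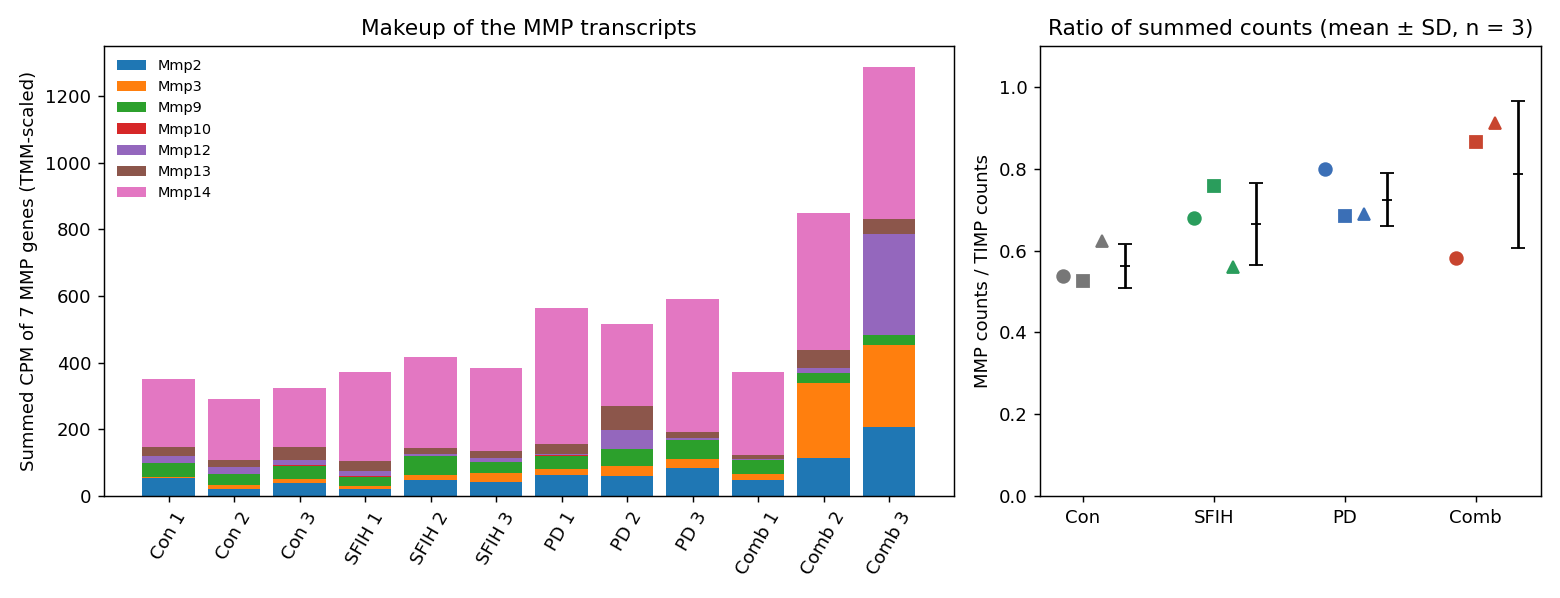
Left, summed CPM of the 7 protease genes per tumor, stacked by gene from 0. Right, the ratio of protease counts to inhibitor counts per tumor (symbols as replicates 1, 2 and 3), with mean ± SD of 3 tumors. Comb 2 and Comb 3 have the largest sums, 849 and 1286 CPM, with Mmp3 a visible part of both and Mmp12 of Comb 3 only.

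Differences between groups were tested with the quasi-likelihood test of edgeR in 1 fit of all 12 tumors, with p-values adjusted by the Benjamini-Hochberg method over 13464 genes. The threshold was an adjusted p of 0.05. The comparisons share tumors (Con enters 3 of them and Comb 3), so their values are given side by side only. With 3 tumors against 3, an exact permutation test of a single gene cannot give a two-sided p under 0.1.

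SFIH against Con asks what the fraction did alone. The level of Mmp14 was higher in all 3 SFIH tumors than in any Con tumor and that of Mmp12 lower, while the other 8 genes overlapped. Over all genes tested, 17.4% did not overlap between these groups. No member passed the adjusted threshold, none had an unadjusted p under 0.05 (2.25% of all genes did), and DESeq2 called none of them, beside 0.0297% of all genes. The 10 log2 fold changes were between -0.80 (Mmp12) and 0.81 (Mmp3), all with an adjusted p of 1.0, with a median of 0.03 against 0.02 for all genes. Without SFIH 1, 5 members did not overlap, beside 27.9% of all genes.

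PD against Con asks what the antibody did alone. Here 6 members, namely Mmp2, Mmp3, Mmp9, Mmp14, Timp2 and Timp3, were higher in every PD tumor than in any Con tumor and none was lower, against 9.42% and 9.36% of all genes. Timp3 had a log2 fold change of 1.33 (SE 0.55), or 2.52-fold, and Mmp14 one of 0.90 (SE 0.25), or 1.87-fold. Both had an unadjusted p under 0.05, as did 3.99% of all genes, and neither passed after adjustment (adjusted p = 1.0 for each). DESeq2 called neither as well, beside 0.0446% of all genes. The other 8 members were between -0.27 (Mmp10) and 1.25 (Mmp3). The median over the 10 genes was 0.41 against 0.01 for all genes. The fibroblast markers of the 3 PD tumors (2755 to 5029 CPM) were also above those of Con (1330 to 1896), as were the macrophage markers (826 to 1666 against 445 to 781) and 5 T cell markers (27.3 to 73.8 against 17.2 to 25.8), and the part of these cells in the differences was not tested. Without TMM scaling, 4 of the 6 did not overlap, beside 20.6% of all genes, the exceptions being Mmp9 and Timp2.

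Comb against Con asks what both agents did together. Mmp3, Mmp14 and Timp2 were higher in every Comb tumor than in any Con tumor and Mmp10 lower, 4 of 10 members against 24.7% of all genes. The log2 fold change was 4.01 for Mmp3 (SE 0.86, adjusted p = 0.0665), equal to 16.1-fold. Mmp2 followed with 1.69 (SE 0.51, adjusted p = 0.0821), Timp3 with 1.27 (SE 0.55, adjusted p = 0.175) and Timp2 with 1.04 (SE 0.32, adjusted p = 0.0846). Mmp14 was at 0.98 (SE 0.25, adjusted p = 0.0683), and the lower Mmp10 had an adjusted p of 0.0665. These 6 had an unadjusted p under 0.05, as did 25.3% of all genes, and none passed the adjusted threshold in edgeR. DESeq2 called 5 of them (Mmp2, Mmp3, Mmp10, Mmp14 and Timp2) together with 14.8% of all genes. Mmp9, Timp1, Mmp13 and Mmp12 had log2 fold changes between -0.11 (Mmp9) and 2.52 (Mmp12) with adjusted p-values of 0.267 to 0.842. The median of the 10 was 1.01 against -0.03 for all genes.

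Leaving out Comb 1 or Comb 3 changed which genes passed or the size of several values. Mmp3 stayed between 3.59 and 4.54 and Mmp14 between 0.81 and 1.21 whichever Comb tumor was left out. Without Comb 3, the log2 fold changes against Con were 3.59 for Mmp3, 1.07 for Mmp2, 0.92 for Timp3, 0.81 for Mmp14 and 0.51 for Timp2, and the median of the members was 0.41. Mmp12 turned from 2.52 to -0.99. No member passed in edgeR without that tumor, whereas DESeq2 without it called 3 (Mmp3, Mmp10 and Mmp14) beside 5.43% of all genes. Without Comb 1, all 6 passed in edgeR, as did 28.5% of all genes tested, and Mmp3 was at 4.54. Over all the alternatives the adjusted p of Mmp3 ranged from 3.43e-14 to 0.334 and that of Mmp14 from 6.27e-06 to 0.334. Fibroblast and macrophage markers were highest in Comb 3 and next highest in Comb 2, the tumors in which Mmp2, Mmp3, Timp2 and Timp3 were highest or, for Timp3, among the 3 highest. The part of these cells in the differences was not tested.

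**Figure D3:**
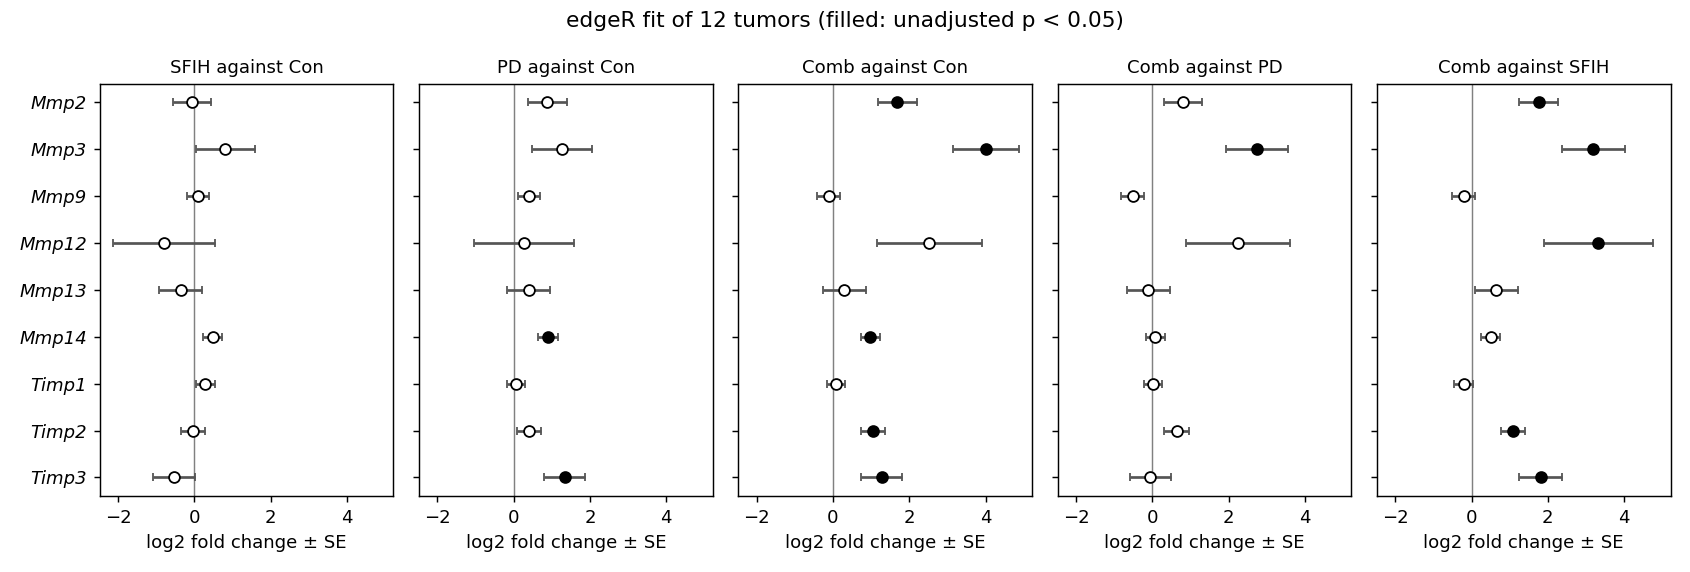
Log2 fold change with its standard error for 9 members in 5 comparisons (edgeR, 12 tumors), filled where the unadjusted p was under 0.05 and none past an adjusted p of 0.05. Mmp10 is left out because its fitted value against the Comb group at 0 is not a measured size. Mmp3 has the largest value in Comb against Con and in Comb against PD, and Timp1 lies between -0.21 and 0.29 in the 5 panels.

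Comb against PD asks what SFIH added to the antibody. Of the 10 genes only Mmp10 did not overlap, lower in Comb, against 14.3% of all genes. Mmp3 had a log2 fold change of 2.75 (SE 0.81, adjusted p = 0.243), or 6.74-fold, with Comb 1 among the PD tumors, and one of 2.33 without Comb 3. Mmp10 had an adjusted p of 0.243 as well. These 2 had an unadjusted p under 0.05, as did 18.0% of all genes, neither passed in edgeR, and DESeq2 called both beside 3.08% of all genes but neither without Comb 3 (0.169% of all genes). The other 8 were between -0.52 (Mmp9) and 2.25 (Mmp12, which was -1.26 without Comb 3), and the median of 0.05 was close to that of all genes (-0.003). Timp3 and Mmp14, the 2 genes with the smallest p in PD against Con, had similar means in PD and Comb, 134 ± 39.3 and 128 ± 84.2 CPM (SD, n = 3) for Timp3 and 351 ± 90.9 and 371 ± 109.6 for Mmp14. Without Comb 1, 6 members did not overlap, beside 45.3% of all genes, and 3 passed in edgeR, Mmp3, Mmp10 and Timp2, beside 15.2% of all genes.

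Comb against SFIH asks what the antibody added to the fraction. Mmp2 and Timp2 were higher in every Comb tumor and Mmp10 lower, against 16.2% of all genes that did not overlap, and without TMM scaling Mmp2 overlapped. Mmp3 had a log2 fold change of 3.20 (SE 0.82, adjusted p = 0.128), Timp3 of 1.81 (SE 0.56, adjusted p = 0.138), Mmp2 of 1.76 (SE 0.51, adjusted p = 0.130) and Timp2 of 1.08 (SE 0.32, adjusted p = 0.132). Mmp10 was lower with an adjusted p of 0.128. Mmp12 stood at 3.32 (SE 1.42, adjusted p = 0.239) but at -0.19 without Comb 3, so its direction turned with that tumor. Without Comb 3 the other values were 2.78 (Mmp3), 1.46 (Timp3), 1.15 (Mmp2) and 0.54 (Timp2). These 6 had an unadjusted p under 0.05, as did 19.0% of all genes, and none passed in edgeR, whereas DESeq2 called 5 (all but Mmp12) beside 8.59% of all genes. Without Comb 3 DESeq2 called none of the other 4 (0.705% of all genes) and gave Mmp10 no adjusted p. Without Comb 1, 7 members passed, the 6 and Mmp14, beside 22.5% of all genes. The other 4 were between -0.21 (Timp1) and 0.65 (Mmp13).

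The interaction asks whether the effect of both agents differed from the sum of their single effects on the log scale. Only Mmp10 had an unadjusted p under 0.05 in edgeR, as did 2.55% of all genes, with an adjusted p of 0.894. The other 9 had adjusted p-values of 0.894 to 0.931, and DESeq2 called no member beside 0.00743% of all genes. Pooled over the 3 tumors, Mmp10 was at 1.39 CPM for SFIH and 0.936 for PD against 1.07 for Con, and at 0 with both agents. Without Comb 1, 4 members had an unadjusted p under 0.05, beside 17.2% of all genes.

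**Figure D4:**
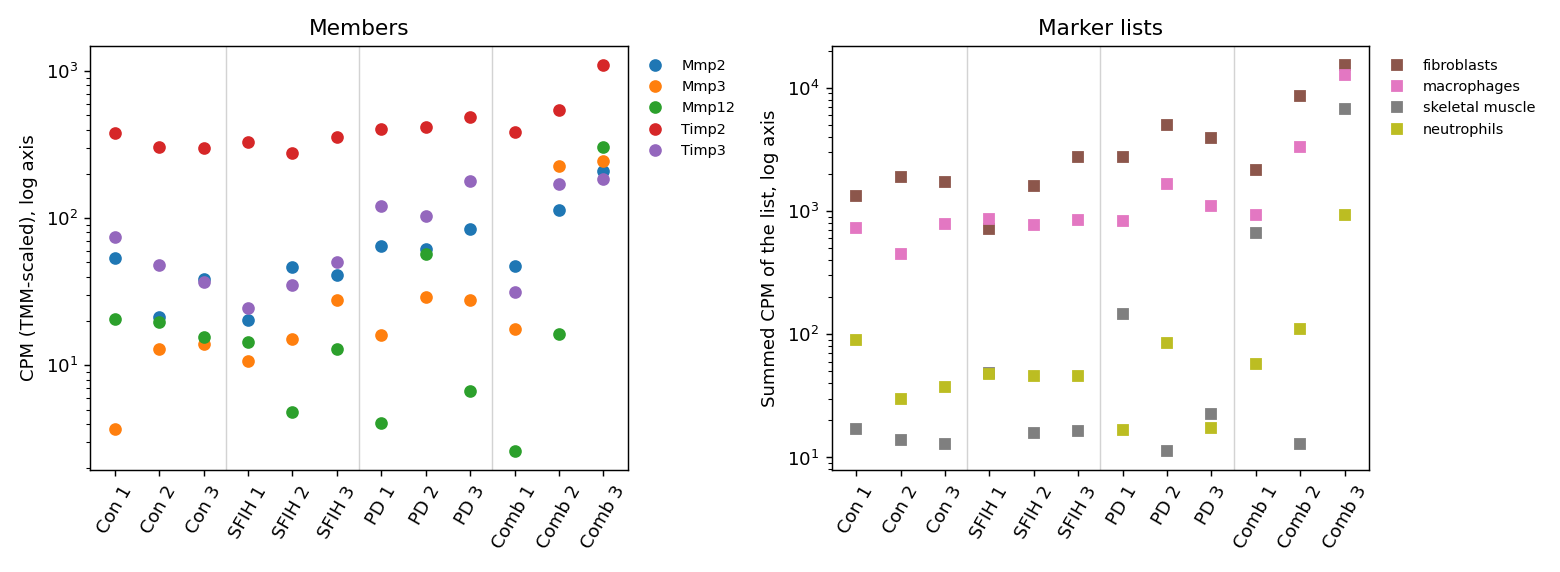
Left, 5 members per tumor in CPM after TMM scaling, and right, the summed CPM of 4 lists of cell type markers in the same tumors, both on log axes. Vertical lines part the groups. Comb 3 is highest for all 4 marker lists and for Mmp2, Mmp3, Mmp12, Timp2 and Timp3.

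Genes with the most similar order over the 12 tumors were sought for the 9 members with a mean count of at least 50, by the mean absolute difference in rank. The nearest to Mmp3 were Sfrp2, a secreted modulator of Wnt signalling, at 0.167 ranks, and Gpx3 and Prelp, a proteoglycan of connective tissue, at 0.333. Ogn (osteoglycin, a small leucine-rich proteoglycan) was nearest to Mmp2 at 0.500 and tied with Rbms3 as nearest to Timp3 at 0.667. Between members, Mmp2 was 1.17 ranks from both Timp2 and Timp3. Timp2 was nearest to Pygl (0.500), Timp1 to the chaperone gene Hsp90aa1 and Sec61g (0.833 each), Mmp14 to Siglech and Atg3 (0.833 each), Mmp12 to Wdr81 (0.833) and Mmp13 to A330023F24Rik (1.0). Mmp9 had no gene closer than 1.5 ranks, shared by Wdr33, Znfx1 and Ckap2l. All points come from the same 12 libraries with their common depth and scaling, and the likeness is a description.

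Other genes of the system were counted by list, each with 0 genes past the adjusted threshold in edgeR in any of the 6 comparisons. The list counts at an unadjusted p under 0.05 in Comb against Con stand beside 25.3% of all genes, or 18.8% without Comb 3. Of 18 further MMP and inhibitor genes, 8 were tested. In Comb against Con 3 of these were higher and 1 lower at an unadjusted p under 0.05, with a median log2 fold change of 0.72, and without Comb 3 there were 2 and 0. Mmp11 (stromelysin-3, made by fibroblasts around tumors) had the highest level and was lower at -1.34, with 77.1 ± 26.2 CPM (SD, n = 3) in Con, 57.0 ± 7.13 for SFIH, 43.4 ± 27.5 for PD and 30.4 ± 22.4 for Comb. Mmp19 was 19.8 ± 2.41 for Con and 50.6 ± 47.2 for Comb, where the 3 tumors were at 19.8, 27.0 and 104.9 CPM. Mmp24 was 25.0 ± 1.91 and 30.3 ± 8.20. Every Comb tumor (14.4 to 56.0 CPM) had less Mmp11 than any Con tumor (60.1 to 107), while SFIH (50.9 to 64.8) and PD (24.1 to 74.9) overlapped Con.

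Of 20 ADAM and ADAMTS proteases, which shed surface proteins or cut proteoglycans, 18 were tested. In Comb against Con 7 were higher and 1 lower at an unadjusted p under 0.05, with a median of 0.50, and without Comb 3 there were 5 and 2. The most abundant were Adam17, the sheddase of TNF, at 131 ± 13.3 CPM for Con and 159 ± 27.0 for Comb, Adam15 at 102 ± 13.5 and 169 ± 90.4, and Adam10 at 66.9 ± 6.08 and 67.0 ± 18.7. In the plasminogen system and other regulators of MMPs, 18 of 22 were tested, with 7 higher and 1 lower and a median of 0.35, against 2 higher and 3 lower without Comb 3. Anxa2, which binds plasminogen activators at the cell surface with S100a10, was at 1028 ± 57.8 CPM for Con and 859 ± 49.7 for Comb, S100a10 at 319 ± 25.7 and 467 ± 143, and Pcolce, an enhancer of procollagen processing, at 460.0 ± 69.8 and 394 ± 95.5.

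Among inducers of MMP transcription, 20 of 24 genes were tested, with 2 higher and 1 lower in Comb against Con and a median of -0.003. The most abundant were the AP-1 subunits Jun, Junb and Jund. Jun was 225 ± 45.6 CPM for Con, 219 ± 31.4 for SFIH, 297 ± 1.89 for PD and 170.1 ± 54.9 for Comb, and its log2 fold change in Comb against PD was -0.80 (SE 0.25, adjusted p = 0.243). Junb was 119 ± 37.6 for Con, 209 ± 61.6 for PD and 120.2 ± 57.9 for Comb. Jund was 105 ± 11.6 for Con and 106 ± 71.4 for Comb.

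The matrix substrates of the enzymes had the largest list median. All 20 were tested, and in Comb against Con 11 were higher and 0 lower at an unadjusted p under 0.05, with a median log2 fold change of 1.77, beside 25.3% of all genes. DESeq2 called 10 of them, beside 14.8% of all genes. Without Comb 3 the median was 0.90, with 8 higher and 1 lower at the same p, beside 18.8% of all genes. Sparc, a matrix glycoprotein that binds collagen, was 941 ± 44.3 CPM for Con, 969 ± 396 for SFIH, 1602 ± 267 for PD and 3800 ± 3203 for Comb. Col3a1 was 794 ± 175 for Con, 652 ± 271 for SFIH, 1645 ± 227 for PD and 3974 ± 3619 for Comb. Col1a2, also counted among the fibroblast markers, was 560.2 ± 179 for Con and 3287 ± 1964 for Comb. In each of these the SD in Comb was large beside the mean, as it was for Mmp3 (164 ± 127 CPM).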

How the data were processed

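RNA of 12 MC38 tumors was read as QuantSeq 3′ mRNA-Seq libraries. The authors deposited raw read counts per gene symbol and tumor, without normalization. The aligner, counting tool, genome build and annotation are not given in the sources used here, and reads carried no stated molecular identifiers. The labels do not say whether the 3 tumors of a group came from 3 mice, so p-values measure the spread between tumors. No 2 replicate columns agreed within counting noise. The 10 genes and all lists were chosen with earlier results of these data known.

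Genes were kept by filterByExpr (13464 of 23282 lines) and fitted with edgeR 4.0.16 in R 4.3.3 (TMM, glmQLFit, glmQLFTest, a coefficient per group, two-sided, Benjamini-Hochberg over all genes tested, threshold 0.05). The steps were tested on simulated data. CPM used TMM-scaled totals of the tested genes. Groups were called not overlapping when every tumor of 1 lay above every tumor of the other. All 10 genes are named, with fold changes where the unadjusted p was under 0.05. From each other list, genes past the threshold or, as none passed, the 3 most abundant are named, with any other gene named after its values were seen. Nearest genes needed a mean count of at least 50 in the member. Promoters came from RefSeq (GRCm38.p6).

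The alternatives were DESeq2 1.42.0, no TMM, upper-quartile scaling, Rn45s left out, no filter or a mean count of at least 50, only the 2 groups compared, a replicate block, and each tumor left out in turn. DESeq2 without Comb 1 or Comb 3 was added after the data were seen. Figures used Python 3.11.15 and matplotlib 3.10.9.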

Additional observations from a re-analysis of the deposited data

How the results depend on the processing

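The count of members past an adjusted p of 0.05 was 0 in all 6 edgeR tests, and also with no TMM, upper-quartile scaling, Rn45s left out, both filters and the 2 groups alone. DESeq2 called 5 for Comb against Con, 2 for Comb against PD and 5 for Comb against SFIH. With 1 tumor left out at a time, edgeR called 0 to 6, 0 to 3 and 0 to 7 in these comparisons, each time above 0 only without Comb 1. DESeq2 without Comb 1 called 2 for PD against Con (beside 0.469% of all genes), 6 for Comb against Con (37.7%), 4 for Comb against PD (28.1%), 6 for Comb against SFIH (32.3%) and 1, Mmp3, in the interaction (2.04%), and without Comb 3 it called 1 for PD against Con (0.499%), 3 for Comb against Con (5.43%), 0 for Comb against PD (0.169%), 0 for Comb against SFIH (0.705%) and 0 in the interaction. DESeq2 gave no adjusted p to Mmp12 in any comparison without Comb 1, nor to Mmp10 for Comb against SFIH without Comb 3, so these are not lost calls. Members that did not overlap numbered 2 to 5 for SFIH against Con (5 without SFIH 1), 4 to 8 for Comb against Con, 1 to 6 for Comb against PD and 3 to 8 for Comb against SFIH when 1 tumor was left out, the highest of the last 3 without Comb 1. In Comb against PD, 2 did not overlap without PD 1. With 2 tumors against 3 more genes of any kind do not overlap, 45.3% of all in Comb against PD without Comb 1. No such share is given beside the 8 members in Comb against Con or in Comb against SFIH without Comb 1. None is given beside the 2 members without PD 1 either. These counts therefore cannot show whether the members differ from all genes. The ratio of protease to inhibitor counts without Mmp14 was 0.235 for Con, 0.218 for SFIH, 0.268 for PD and 0.410 for Comb. The direction of Mmp12 for Comb against SFIH turned to -0.19 without Comb 3 in edgeR and to -0.15 in DESeq2, and it ranged up to 3.90 in edgeR with 1 tumor left out (without Comb 1). Leaving out 2 values with no adjusted p, of 364 alternative values for the 17 fold changes with an unadjusted p under 0.05, 317 kept their direction and side of the threshold, 45 passed it (29 in fits without Comb 1) and 2 were these reversals. The cause of these changes was not tested. Without TMM the median of all genes shifted to -0.29 for Comb against Con, -0.16 against PD and -0.31 against SFIH, and that of the members to 0.70, -0.13 and 0.52. The fit of 2 groups alone and the filter on a mean count gave no Comb value for Mmp10, which had too few counts.

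The replicate numbers are not stated to mark shared animals or days. Of 18 pairs of tumors with the same number, 6 had deviations correlated above 0.1. Pairs with different numbers are not given beside them, so this count cannot decide whether the numbers mark pairs. A replicate block left 0 members past the threshold in every comparison. Depth limits Mmp10, whose highest count was 28.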

Other observations

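Outside the genes described so far, 6 genes of the same lists were picked after their values were seen. Their values come from the edgeR fit of all 12 tumors, and none without Comb 3 is given for them. In Comb against Con, 25.3% of all genes had an unadjusted p under 0.05 in that fit. Adamts2, which removes the N-propeptide of fibrillar procollagens, had a log2 fold change of 3.63 (SE 0.79, adjusted p = 0.0665, edgeR) in Comb against Con and 2.05 (SE 0.75, adjusted p = 1.0) in PD against Con. Adamts15 was at 4.16 (SE 1.03, adjusted p = 0.0671) and Adamts5, an aggrecanase, at 2.19 (SE 0.53, adjusted p = 0.0665) in Comb against Con. Plau, the urokinase gene, was at 2.01 (SE 0.64, adjusted p = 0.0899) in Comb against Con and 1.59 (SE 0.63, adjusted p = 0.250) in Comb against PD. Elastin (Eln), a substrate of macrophage elastase, was at 4.16 (SE 0.88, adjusted p = 0.0665) in Comb against Con and 3.01 (SE 0.83, adjusted p = 0.243) in Comb against PD. Lcn2, whose product forms a complex with MMP-9, lay the other way at -1.83 (SE 0.44, adjusted p = 1.0) in PD against Con and -1.15 (SE 0.42, adjusted p = 0.127) in Comb against Con.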
